A study of Mus musculus with 12 samples.

Results

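The mRNAs of potassium channels and voltage-gated calcium channels were examined by RNA-seq in cultured mouse mesangial cells (MMC), the contractile cells that hold the capillary loops of the kidney glomerulus. The genes were chosen by their symbols, which begin with Kcn, Cacna, Cacnb or Cacng, and selected on their raw counts, which had to reach 20 in at least 3 of the 12 libraries. Of 124 symbols with such names, 37 met the count rule and 19 had no count in any library, while 12475 of all 25230 genes in the files met the same count rule. The MMC were wild-type (WT) primary cells or primary cells from mice of the lncMGC-KO5 line (KO), in which Cas9 deleted a short stretch at the transcription start of the long non-coding RNA lncMGC. Cells of each genotype were kept in serum-depleted medium (SD) or given 10 ng/ml TGF-β during 24 h, which gave WT-SD and WT-TGF, KO-SD and KO-TGF, with 3 libraries in each group. The KO cells came from 1 edited mouse line, and the genotype cannot be told apart from the cultures in which it was measured. The sources do not say whether the libraries of a group came from separate mice or cultures, so the errors and false discovery rates (FDR) cover the spread between these libraries only.

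Potassium channels let potassium leave the cell and draw the membrane toward more negative voltages. Voltage-gated calcium channels open when the membrane depolarizes and admit calcium, which drives contraction in smooth muscle and in mesangial cells. A voltage-gated calcium channel is built around an α1 pore (Cacna1 genes) with α2δ (Cacna2d), β (Cacnb) and, for some channels, γ (Cacng) subunits that set how much of the pore reaches the membrane and how it gates. Large-conductance (BK) potassium channels, a Kcnma1 pore with Kcnmb partners, open to calcium and voltage together, and in mesangial cells they are known as a brake on contraction. TGF-β is the growth factor that drives matrix production in these cells in diabetic kidney disease.

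The libraries held between 19898050 and 22827706 reads assigned to genes. All 8 mesangial and smooth muscle markers examined met the count rule, and their summed level was 2501 to 2643 CPM (counts scaled to a common library size) in WT-SD, 5683 to 5848 in WT-TGF, 4862 to 5024 in KO-SD and 10790 to 10890 in KO-TGF. Acta2 and Tagln carried that sum, while Des was lower in KO (7.59 CPM in WT-SD and 0.528 in KO-SD), as was Myh11 (1.37 and 0.729), and Itga8 was lower with TGF-β (2.86 and 1.61 in WT, 3.04 and 0.643 in KO). Of the podocyte markers 3 of 6 met the rule, with Nphs1 and Ptpro among those that did not, and the sum was 435 to 442 CPM in WT-SD, 449 to 467 in WT-TGF, 213 to 222 in KO-SD and 205 to 220.1 in KO-TGF. Wt1 was at 97.9 CPM in WT-SD and 25.3 in KO-SD. Of the endothelial markers 1 of 6 met it, Ehd3, at 32.3 CPM in WT-SD and 20.8 in WT-TGF, with 17.1 in KO-SD and 9.78 in KO-TGF. The part of these markers in the differences below was not tested. lncMGC is not a row of the count files, so the deletion was not checked here and KO stands for the libraries labelled KO.

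The 37 genes fell into 10 classes. Among the pores there were 12 of 40 voltage-gated potassium channels, 4 of 8 potassium channels activated by calcium or sodium, 3 of 15 inward rectifiers, 1 of 14 two-pore-domain channels and 5 of 10 calcium channel α1 pores. Among the other subunits there were 5 of 17 potassium channel accessory proteins, 1 of 4 α2δ, all 4 β and 1 of 8 γ subunits, and 1 RNA of 4 named after a channel gene without encoding a channel. In 18 of the genes the count reached 20 in all 12 libraries. Cacnb2, Kcnd2 and Kcng3 reached it in exactly 3 libraries, all of them WT-SD, so that the count rule itself favored a higher level there. For these 3 genes differences from WT-SD are given without an FDR or interval. Standard errors beside those differences do not allow for that selection. Some other genes reached 20 counts in 1 genotype or treatment only. They include Kcnn4 and Cacna1h in KO, Kcna3 and Kcnc2 in WT, and Cacnb4 in SD. Their differences between those genotypes or treatments are also given without an FDR. The counts of the comparisons are also given without Cacnb2, Kcnd2 and Kcng3, but still hold these other genes. Just outside the rule lay Kcnt2, with 2 libraries at 20 counts, and Kcna1 and Kcnh3, with 1 library each. These levels are a description, since counts selected the genes.

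Per kilobase of exon (RPKM) the β subunit gene Cacnb3 was the highest of the 37 on the mean of the 4 groups, at 22.6, 19.1, 27.2 and 20.4 RPKM in WT-SD and WT-TGF, KO-SD and KO-TGF. It was followed by Cacng7 at 27.7, 21.3, 22.1 and 15.7 RPKM, which was above Cacnb3 in both WT groups. Both are auxiliary subunits, and neither forms a pore. The highest pore differed by treatment, since the two-pore-domain channel Kcnk12 was at 36.5 RPKM in WT-TGF and 28.6 in KO-TGF, above Cacnb3 in both, but at 2.52 in WT-SD and 1.67 in KO-SD. The T-type calcium channel pore Cacna1g was at 15.6 RPKM in WT-SD and 4.67 in KO-SD. Most other genes were low, and the median level of the 37 was 2.71 CPM, against 27.1 CPM over all 12475 genes.

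**Figure D1:**
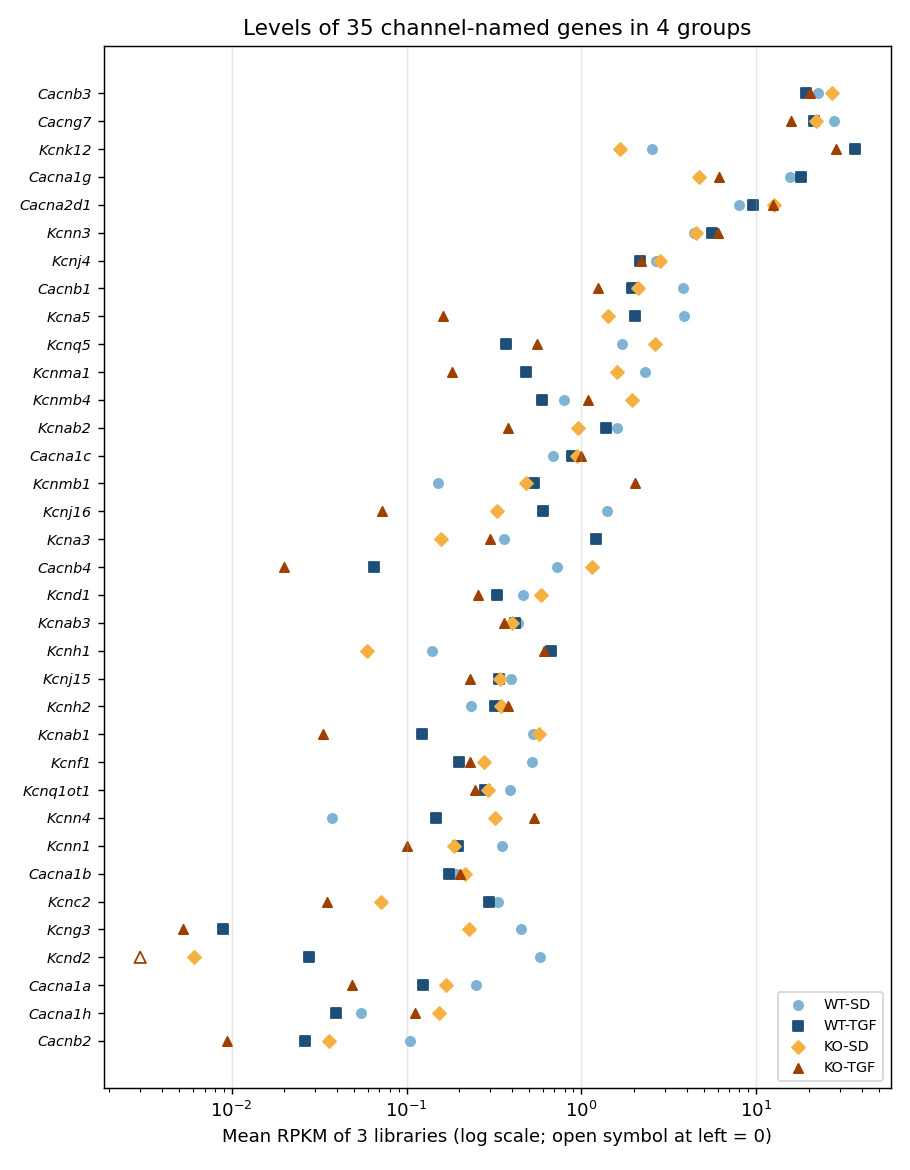
Mean RPKM of 3 libraries on a log scale (x axis) for 35 of the 37 genes (y axis, ordered by the mean of the 4 groups); each symbol is 1 group, and the open symbol at the left edge is a group at 0 (Kcnd2 in KO-TGF). Cacnb3 and Cacng7 lie at the top with the 4 groups close together, while Kcnk12, Kcna5, Kcnma1 and Cacnb4 spread widely between groups.

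The first question was which channel mRNAs change when WT MMC meet TGF-β. In WT-TGF against WT-SD 9 of the 37 genes rose, 20 fell and 8 did not pass an FDR of 5% in edgeR's quasi-likelihood test. Over all 12475 genes 36.6% rose and 36.4% fell, so that the share rising was 24.3% for the channel genes and the share falling 54.1%. A change over 2-fold was found in 15 of 37 (40.5%), 5 higher and 10 lower, against 12.1% of all genes in either direction. The median log2 fold change was -0.38 in the channel genes and -0.01 in all genes. Without Cacnb2, Kcnd2 and Kcng3, 9 of 34 rose and 17 fell (50.0%), 5 and 7 of them over 2-fold. Of the 12341 genes that did not meet the rule in 1 group only, 36.9% rose, 36.0% fell and 11.5% changed over 2-fold. The median of the 34 was -0.27. The lower level of the channel genes stands beside this difference, and its part in it was not tested.

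In KO-TGF against KO-SD 7 of the 37 rose, 21 fell and 9 did not pass, against 34.7% higher and 39.8% lower over all genes. Changes over 2-fold again numbered 15, 3 higher and 12 lower, against 16.0% of all genes; without KO-SD replicate 3 the 3 became 5, with Kcna3 and Kcnn4. The median log2 fold change was -0.56, against -0.04 in all genes. Without Cacnb2, Kcnd2 and Kcng3, 7 of 34 rose and 19 fell, 3 and 10 of them over 2-fold. Of the 12341 genes left by the same step 35.0% rose, 39.6% fell and 15.5% changed over 2-fold. The comparisons of treatment in WT and in KO share no library. Of the 37 genes 7 rose in both genotypes (Cacna1g, Kcna3, Kcnh1, Kcnk12, Kcnmb1, Kcnn3 and Kcnn4) and 18 fell in both, 2 rose with a call in WT only, 2 fell with a call in WT only, 3 fell with a call in KO only and 5 passed in neither. The 18 include Cacnb2 and Kcng3, and also Cacnb4, which met the count rule through SD libraries only. The genes that fell with a call in WT only include Kcnd2. These patterns were not counted over all genes, so nothing particular to the channel genes is read from them. In bulk RNA, fewer cells that express a gene and less RNA per cell cannot be told apart.

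Scaling by library size alone, without the TMM factors, lowers the median log2 fold change of all genes by 0.18 in the WT response and by 0.22 in the KO response, so changes smaller than about that size depend on the scaling. Leaving out single libraries ended 3 of the 29 calls in WT (Kcnj4, Kcnmb4 and Kcnd1) and 5 of the 28 calls in KO, among them Kcna3, Kcnj4, Kcnj15 and Kcnn1.

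**Figure D2:**
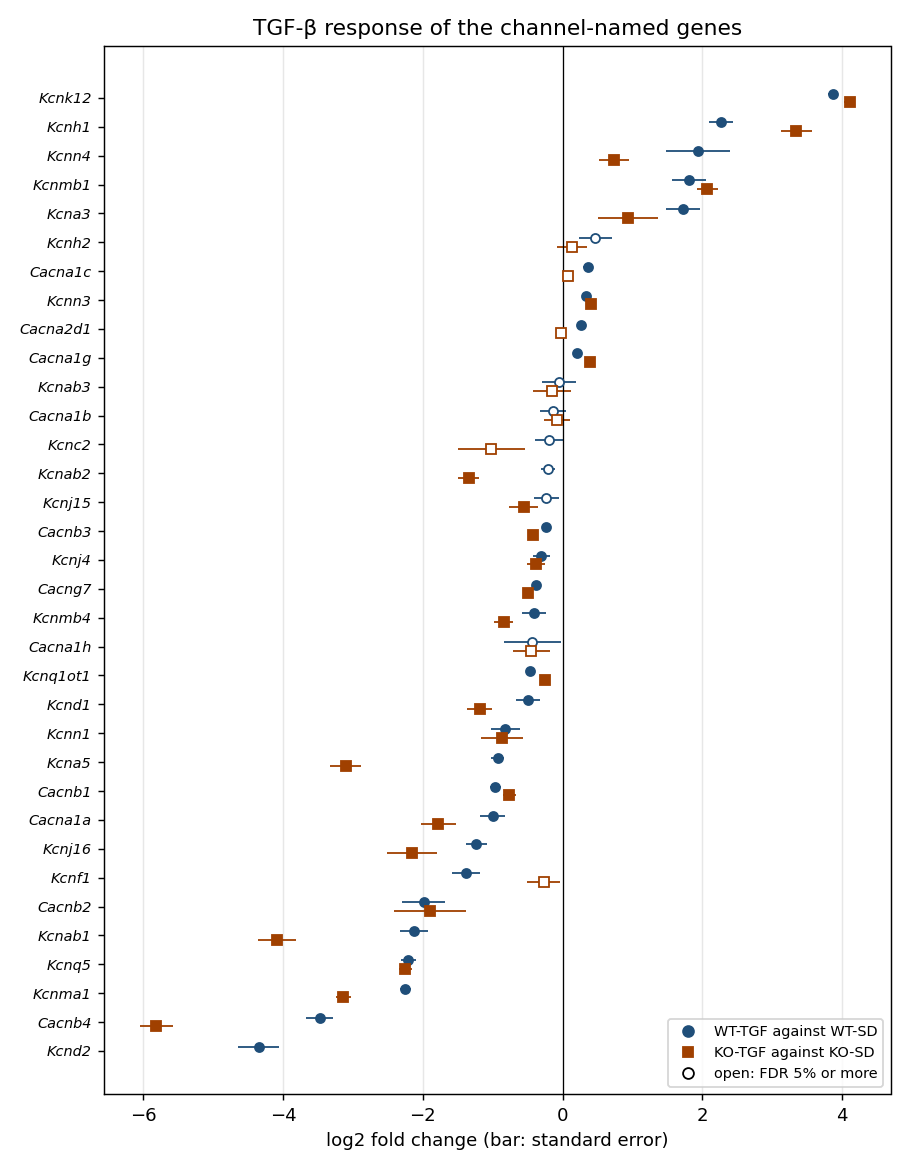
Log2 fold change with TGF-β (x axis) of the genes (y axis, ordered by the WT response) in WT (blue circles) and in KO (brown squares), with bars for the standard error and open symbols where the FDR was 5% or more. Values that rest on 0 to 2 counts in a group (Kcng3 in both genotypes, Kcnd2 in KO) are left out. The filled WT symbols of Kcnd2 and Cacnb2 are differences from WT-SD, through which they met the count rule, and are not read as calls. The symbols of Cacnb4, which met the rule through SD libraries only, are not read as calls either. Kcnk12 lies at the top at 3.86 and 4.11, and Cacnb4 near the bottom at -3.48 and -5.81.

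Kcnk12 encodes THIK-2, a two-pore-domain subunit of the background potassium channel family, and is at chr17:87745821-87797994, minus strand of mm10. It was at 5.31, 4.20 and 5.36 CPM in the WT-SD libraries and 71.1, 71.2 and 73.7 in the WT-TGF libraries, and at 2.93, 3.57 and 3.34 in the KO-SD libraries and 56.95, 54.8 and 57.7 in the KO-TGF libraries. The 6 TGF-β libraries all lay more than 10 times above the 6 SD libraries. The log2 fold change was 3.86 ± 0.06 (FDR 1.56e-30) in WT and 4.11 ± 0.07 (FDR 1.14e-29) in KO, each with its standard error, and the responses differed by 0.24 ± 0.13 (FDR 0.177), which did not pass. It was the only member of its class of 14 that met the count rule, so no other two-pore-domain channel could be compared.

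Kcnh1, the voltage-gated ether-à-go-go channel EAG1 (chr1:192189144-192510159, plus strand), was at 0.765, 0.944 and 1.35 CPM in the WT-SD libraries and 4.98, 4.61 and 5.20 in the WT-TGF libraries, and at 0.367, 0.482 and 0.458 in the KO-SD libraries and 4.75, 4.15 and 4.51 in the KO-TGF libraries. It rose in both genotypes to a similar level from a lower start in KO, with log2 fold changes of 2.27 ± 0.17 (FDR 3.68e-13) and 3.34 ± 0.22 (FDR 8.00e-15). Kcna3 encodes Kv1.3, a delayed rectifier best known from lymphocytes and macrophages, and lies at chr3:107036162-107038129, plus strand. It was at 0.540, 0.944 and 0.586 CPM in the WT-SD libraries and 2.18, 2.01 and 2.73 in the WT-TGF libraries, and at 0.0917, 0.434 and 0.366 in the KO-SD libraries and 0.486, 0.539 and 0.689 in the KO-TGF libraries. The WT-TGF libraries stood above all others, and the log2 fold change was 1.72 ± 0.25 (FDR 2.52e-07) in WT and 0.94 ± 0.43 (FDR 0.0495) in KO. The KO value was 0.51 (FDR 0.277) without KO-SD replicate 1, whose CPM was the lowest of the 12.

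Macrophage markers are given beside Kcna3 because their summed level also differed between genotypes. The 7 markers summed to 24.4 to 25.7 CPM in WT-SD, 15.1 to 18.5 in WT-TGF, 2.06 to 2.22 in KO-SD and 0.808 to 1.46 in KO-TGF, and Ptprc, C1qa and C1qb were under the count rule. Within WT Lyz2 (11.9 and 8.50 CPM) and Adgre1 (7.59 and 3.97), which carried most of the sum, were lower with TGF-β, as were Cd68 and Csf1r. Ptprc (0.576 and 0.718), C1qa (0.372 and 0.383) and C1qb (0.384 and 0.500) were higher, as Kcna3 was. The part of these markers in the Kcna3 differences was not tested. Neuronal markers summed to 14.1 to 15.3 CPM in WT-SD, 73.1 to 74.2 in WT-TGF, 19.7 to 23.2 in KO-SD and 93.5 to 101.6 in KO-TGF. The sum was higher with TGF-β, as Kcnk12 and Kcnh1 were, and higher in KO, where Kcnk12 was lower at both treatments and Kcnh1 lower in SD. Nearly all of that sum was Tubb3, a tubulin. The other neuronal marker that met the count rule, Syt1, was lower with TGF-β (3.34 and 1.13 CPM in WT, 3.67 and 1.52 in KO), while Rbfox3, Snap25, Elavl3 and Nefl were under the count rule.

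Of the 12 voltage-gated potassium pores 7 fell with TGF-β in WT and 6 in KO, and without Kcnd2 and Kcng3 5 of 10 in each. Over all genes 36.4% fell in WT and 39.8% in KO, and nothing particular to this class is read from its counts. Summed over the 12 pores the level was 9.32 ± 0.268 RPKM in WT-SD (mean ± SD, n = 3), 5.82 ± 0.362 in WT-TGF, 6.10 ± 0.209 in KO-SD and 2.63 ± 0.101 in KO-TGF. Kcnd2 and Kcng3, which met the count rule through WT-SD only, are part of it. They held 6.22% and 4.80% of the sum in WT-SD, 0.473% and 0.162% in WT-TGF, and 0.102% and 3.72% in KO-SD. Kcna5, the Kv1.5 delayed rectifier of vascular smooth muscle and heart (chr6:126532551-126535555, minus strand), held the largest share of this sum in WT-SD, 41.4%, but 6.19% in KO-TGF. It was at 11.6, 11.1 and 10.5 CPM in the WT-SD libraries and 5.98, 5.41 and 5.997 in the WT-TGF libraries, and at 4.49, 3.76 and 3.85 in the KO-SD libraries and 0.378, 0.485 and 0.530 in the KO-TGF libraries. No group overlapped another, and the log2 fold change was -0.93 ± 0.10 (FDR 3.88e-10) in WT and -3.10 ± 0.22 (FDR 3.17e-14) in KO.

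Kcnq5, the M-type channel Kv7.5, fell by a similar factor in both genotypes. Its means were 13.1, 2.84, 20.3 and 4.27 CPM in WT-SD and WT-TGF, then KO-SD and KO-TGF, as for every set of 4 means here, with log2 fold changes of -2.21 ± 0.11 (FDR 2.38e-18) and -2.25 ± 0.09 (FDR 3.60e-20). It held 18.3% of the voltage-gated potassium RPKM in WT-SD and 43.4% in KO-SD, where it was the highest of the 12.

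Kcng3 and Kcnf1 encode Kv6.3 and Kv5.1, which do not conduct alone and join other voltage-gated subunits as modifiers. Kcng3 was at 1.44, 1.63 and 1.44 CPM in the WT-SD libraries and 0, 0.0895 and 0 in the WT-TGF libraries, and at 0.825, 0.772 and 0.687 in the KO-SD libraries and 0, 0 and 0.0530 in the KO-TGF libraries. Its 3 WT-TGF libraries held 2 counts together against 102 in WT-SD, a ratio of 54.2. No interval is given there, because Kcng3 met the count rule through WT-SD only. In KO 49 counts stood against 1, a ratio of 49.5 with an interval of 8.48 to 1996. Kcnf1 was at 2.79, 2.57 and 2.16 CPM in the WT-SD libraries and 0.996, 1.16 and 0.694 in the WT-TGF libraries, and at 1.38, 1.25 and 1.37 in the KO-SD libraries and 1.08, 1.29 and 0.955 in the KO-TGF libraries. It fell in WT (-1.38 ± 0.20, FDR 4.17e-07), and in KO, where SD was already low, the libraries of the treatments overlapped (-0.27 ± 0.24, FDR 0.306).

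The A-type channels Kcnd1 and Kcnd2 (Kv4.1 and Kv4.2), which pass a fast and brief current, differed in pattern. Kcnd2 was at 3.06, 3.30 and 2.61 CPM in the WT-SD libraries and 0.142, 0.134 and 0.149 in the WT-TGF libraries, and at 0, 0.0482 and 0.0458 in the KO-SD libraries and 0, 0 and 0 in the KO-TGF libraries. Only the WT-SD libraries held more than 3 counts, 203 together, and in WT-TGF each library held 3. The fitted log2 fold change in WT was -4.35 ± 0.30, and in KO both treatments were at or under 3 counts per library, so no fold is given. Kcnd1 had means of 2.46, 1.75, 3.09 and 1.36 CPM, and fell in both genotypes (-0.50 ± 0.17, FDR 0.00965 in WT and -1.18 ± 0.18, FDR 6.01e-07 in KO).

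Kcnc2, the Kv3.2 channel of fast-firing neurons, and Kcnh2, the hERG channel of the heart, were not called in WT. Kcnc2 was at 1.53, 3.05 and 2.57 CPM in the WT-SD libraries and 2.13, 1.79 and 2.38 in the WT-TGF libraries, and at 0.459, 0.482 and 0.596 in the KO-SD libraries and 0.162, 0.216 and 0.371 in the KO-TGF libraries. Its treatment differences were -0.19 ± 0.20 (FDR 0.387) in WT and -1.02 ± 0.48 (FDR 0.0578) in KO, and neither passed. Kcnh2 had means of 1.13, 1.56, 1.67 and 1.84 CPM and passed in neither genotype (0.47 ± 0.23, FDR 0.0694 and 0.13 ± 0.21, FDR 0.578).

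Kcnab1, Kcnab2 and Kcnab3 encode the cytoplasmic Kvβ subunits that bind Kv1 channels such as Kcna3 and Kcna5. Kcnab1 was at 4.68, 4.68 and 4.24 CPM in the WT-SD libraries and 1.19, 0.626 and 1.34 in the WT-TGF libraries, and at 5.59, 4.92 and 4.31 in the KO-SD libraries and 0.378, 0.108 and 0.371 in the KO-TGF libraries. The SD groups overlapped, and with TGF-β the KO libraries fell below the WT ones, with log2 fold changes of -2.12 ± 0.20 (FDR 4.88e-11) in WT and -4.08 ± 0.27 (FDR 1.18e-14) in KO. The KO-TGF libraries held only 7, 2 and 7 counts of Kcnab1. Kcnab2 had means of 8.89, 7.69, 5.35 and 2.11 CPM, with -0.21 ± 0.10 (FDR 0.0544) in WT, which did not pass, and -1.34 ± 0.15 (FDR 1.91e-09) in KO. Kcnab3 had means of 1.25, 1.20, 1.15 and 1.04 CPM and passed in none of the comparisons.

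The subunits of the BK channel moved in opposite directions. Kcnma1, the pore (chr14:23292288-24005110, minus strand), was at 41.4, 38.3 and 37.7 CPM in the WT-SD libraries and 8.06, 8.68 and 7.93 in the WT-TGF libraries, and at 28.5, 28.9 and 24.3 in the KO-SD libraries and 3.02, 2.64 and 3.61 in the KO-TGF libraries. It fell in both genotypes, with log2 fold changes of -2.25 ± 0.07 (FDR 1.58e-22) and -3.13 ± 0.10 (FDR 7.89e-23). Kcnmb1, the β1 subunit that raises the calcium sensitivity of the pore in smooth muscle (chr11:33962955-33973641, plus strand), was at 0.495, 0.815 and 0.586 CPM in the WT-SD libraries and 2.61, 1.79 and 2.33 in the WT-TGF libraries, and at 1.70, 2.27 and 2.06 in the KO-SD libraries and 7.45, 8.57 and 9.28 in the KO-TGF libraries. It rose in both, at 1.80 ± 0.24 (FDR 9.22e-08) and 2.07 ± 0.15 (FDR 6.31e-14), and the difference of the responses did not pass (0.27 ± 0.32, FDR 0.608).

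Per kilobase of exon Kcnma1 was above Kcnmb1 in SD, at 2.31 against 0.151 RPKM in WT-SD and 1.60 against 0.479 in KO-SD. In KO-TGF the order was the reverse, 0.182 against 2.01 RPKM. The ratio of Kcnmb1 to Kcnma1 RPKM was 0.0484 to 0.0861 in the WT-SD libraries, 0.835 to 1.31 in WT-TGF, 0.241 to 0.344 in KO-SD and 9.98 to 13.1 in KO-TGF, and no group overlapped another. The level of 1 RNA relative to another depends on the exon lengths used, but its change between groups does not. The summed mesangial and smooth muscle markers were also higher with TGF-β and in KO, as given above. Acta2, Tagln and Cnn1 followed that pattern. Des and Myh11 did not, Itga8 was lower with TGF-β, and Pdgfrb was at 385 CPM in WT-TGF and 361 in KO-TGF. Gata3 was nearly level with TGF-β in WT (3.99 and 4.07). The part of these markers in the Kcnmb1 result was not tested. Kcnmb4, the β4 subunit best known from neurons, was at 2.79, 2.49 and 2.61 CPM in the WT-SD libraries and 2.13, 1.88 and 1.93 in the WT-TGF libraries, and at 6.10, 5.98 and 7.42 in the KO-SD libraries and 4.05, 3.93 and 2.92 in the KO-TGF libraries. It fell with TGF-β, at -0.41 ± 0.18 (FDR 0.0383) in WT and -0.84 ± 0.13 (FDR 1.36e-06) in KO, and its KO-SD libraries stood above all others.

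**Figure D3:**
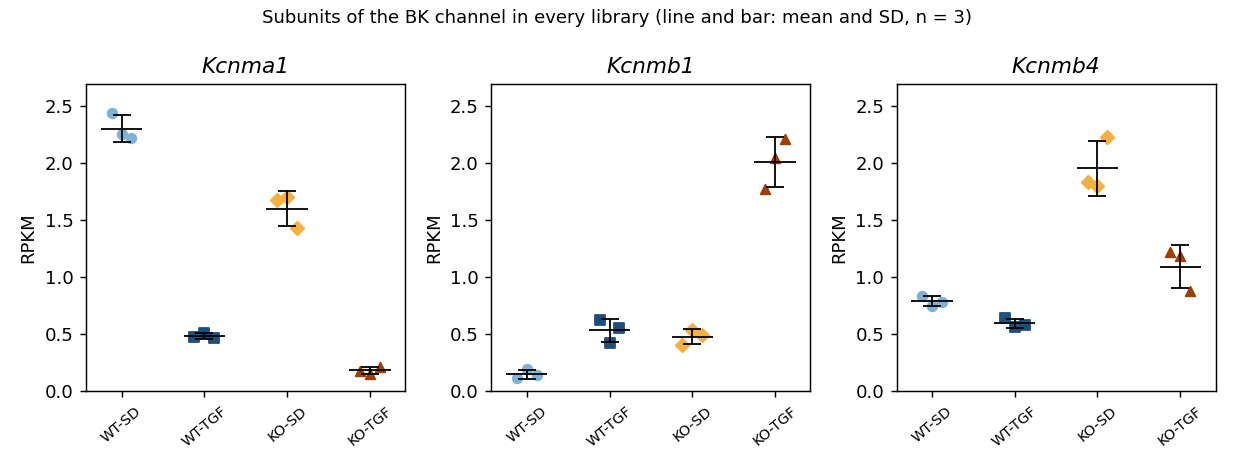
RPKM (y axis) of the BK pore gene Kcnma1 and of the subunit genes Kcnmb1 and Kcnmb4 in every library of the 4 groups (points), with the mean as a line and the SD as a bar. Kcnma1 is lowest and Kcnmb1 highest in KO-TGF.

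Among the small- and intermediate-conductance calcium-activated channels, Kcnn3 (SK3) was the most abundant. It was at 47.6, 45.9 and 44.9 CPM in the WT-SD libraries and 59.05, 58.97 and 57.2 in the WT-TGF libraries, and at 49.2, 45.8 and 46.6 in the KO-SD libraries and 64.4, 60.8 and 63.2 in the KO-TGF libraries. The TGF-β libraries lay above the SD libraries in both genotypes, with log2 fold changes of 0.34 ± 0.04 (FDR 6.60e-09) and 0.41 ± 0.04 (FDR 1.38e-10), which were 0.16 and 0.19 when scaled by library size alone. Kcnn4, the intermediate-conductance channel of fibroblasts and blood cells, was at 0.0900, 0.257 and 0.225 CPM in the WT-SD libraries and 0.759, 0.716 and 0.793 in the WT-TGF libraries, and at 1.01, 1.54 and 2.38 in the KO-SD libraries and 2.97, 3.07 and 2.23 in the KO-TGF libraries. It rose, at 1.94 ± 0.46 (FDR 0.000365) in WT and 0.74 ± 0.22 (FDR 0.00292) in KO, where the treatments overlapped and the value ranged from 0.48 without KO-SD replicate 1 to 1.11 without KO-SD replicate 3. Kcnn1 (SK1) had means of 1.61, 0.907, 0.855 and 0.464 CPM and fell in both (-0.82 ± 0.21, FDR 0.00111 and -0.87 ± 0.30, FDR 0.0125).

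The inward rectifiers were lower or not called. Kcnj4 (Kir2.3), the most abundant of them, was at 5.72, 6.05 and 5.41 CPM in the WT-SD libraries and 3.98, 4.43 and 5.55 in the WT-TGF libraries, and at 6.60, 6.17 and 5.50 in the KO-SD libraries and 5.18, 4.80 and 4.08 in the KO-TGF libraries. Its decrease was small and overlapped between the WT groups, at -0.30 ± 0.13 (FDR 0.0314) in WT and -0.38 ± 0.13 (FDR 0.0096) in KO. Kcnj16 (Kir5.1), which pairs with other Kir subunits in kidney tubules, was at 4.91, 6.22 and 5.50 CPM in the WT-SD libraries and 2.61, 1.88 and 2.63 in the WT-TGF libraries, and at 0.963, 1.54 and 1.37 in the KO-SD libraries and 0.378, 0.162 and 0.318 in the KO-TGF libraries. It fell in both, at -1.23 ± 0.15 (FDR 2.01e-08) and -2.15 ± 0.36 (FDR 3.22e-06). The tubular markers summed to 48.1 to 51 CPM in WT-SD, 17.5 to 19.2 in WT-TGF, 21.7 to 22.7 in KO-SD and 11.9 to 13.2 in KO-TGF with Slc34a1 and Umod at 0 in all libraries. Lrp2 carried most of the sum (42.2 CPM in WT-SD and 11.7 in WT-TGF), while Cubn (2.97 and 5.27) and Slc12a1 (0.354 and 0.846) were higher with TGF-β, and Aqp1 was at 4.06 CPM in WT-SD and 6.80 in KO-SD. The part of these markers in the Kcnj16 result was not tested. Kcnj15 (Kir4.2) had means of 2.51, 2.13, 2.15 and 1.46 CPM and was called only in KO (-0.56 ± 0.21, FDR 0.018, against -0.23 ± 0.18, FDR 0.243 in WT).

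In the calcium channels the pores and the β subunits differed. Cacna1g, the T-type pore Cav3.1 that opens near resting voltages (chr11:94408391-94474400, minus strand), was at 155, 156 and 164 CPM in the WT-SD libraries and 176, 189 and 185 in the WT-TGF libraries, and at 45.3, 48.9 and 47.9 in the KO-SD libraries and 62.3, 57.8 and 65.5 in the KO-TGF libraries. It rose slightly, at 0.21 ± 0.03 (FDR 3.21e-06) in WT, a call that was lost at 0.03 when scaled by library size alone, and at 0.39 ± 0.05 (FDR 6.13e-09) in KO. Cacna1c, the L-type pore of smooth and cardiac muscle, had means of 14.5, 18.6, 19.9 and 21.1 CPM, with 0.36 ± 0.07 (FDR 2.84e-05) in WT and 0.08 ± 0.07 (FDR 0.279) in KO, where it did not pass. Cacna1a, the P/Q-type pore of nerve terminals, had means of 2.87, 1.42, 1.91 and 0.555 CPM and fell in both (-0.999 ± 0.18, FDR 1.03e-05 and -1.77 ± 0.25, FDR 2.53e-07).

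The N-type pore Cacna1b, with means of 1.92, 1.74, 2.13 and 2.02 CPM, passed in none of the comparisons. Cacna1h, the T-type pore Cav3.2, was at 0.630, 0.386 and 0.586 CPM in the WT-SD libraries and 0.190, 0.626 and 0.347 in the WT-TGF libraries, and at 1.01, 1.54 and 1.92 in the KO-SD libraries and 0.864, 1.29 and 1.11 in the KO-TGF libraries. Its treatment differences did not pass (-0.43 ± 0.41, FDR 0.346 and -0.45 ± 0.27, FDR 0.125). Of the summed RPKM of the 5 pores, Cacna1g held 93.0% in WT-SD, 93.7% in WT-TGF, 76.0% in KO-SD and 81.8% in KO-TGF, and Cacna1c held 4.06%, 4.56%, 15.3% and 13.4%.

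Of the β subunit genes Cacnb1, Cacnb3 and Cacnb4 fell with TGF-β in both genotypes. Cacnb3 (chr15:98628436-98644536, plus strand) was at 88.1, 88.4 and 94.9 CPM in the WT-SD libraries and 77.3, 75.2 and 77.9 in the WT-TGF libraries, and at 104, 111 and 113 in the KO-SD libraries and 80.4, 80.9 and 83.9 in the KO-TGF libraries, with log2 fold changes of -0.24 ± 0.04 (FDR 1.59e-06) and -0.42 ± 0.04 (FDR 1.38e-11). Cacnb4 (chr2:52428320-52676609, minus strand), a β subunit best known from the brain, was at 6.80, 6.31 and 6.49 CPM in the WT-SD libraries and 0.854, 0.403 and 0.496 in the WT-TGF libraries, and at 11.1, 9.79 and 10.2 in the KO-SD libraries and 0.216, 0.0539 and 0.265 in the KO-TGF libraries. It moved most of the 4, with TGF-β libraries far below SD libraries and log2 fold changes of -3.48 ± 0.19 and -5.81 ± 0.23. It met the count rule through SD libraries only, so no FDR is given for them. Its KO-TGF libraries held only 4, 1 and 5 counts. Cacnb1 had means of 17.2, 8.82, 9.54 and 5.63 CPM (-0.96 ± 0.08, FDR 9.64e-13 and -0.76 ± 0.10, FDR 3.12e-08). Cacnb2 had means of 1.39, 0.346, 0.479 and 0.125 CPM with fitted log2 fold changes of -1.99 ± 0.30 in WT and -1.90 ± 0.52 (FDR 0.00161) in KO. Its WT-SD libraries are the ones through which it met the count rule, and its KO-TGF libraries held 2, 1 and 4 counts. Cacnb3 made up 82.9% of the β subunit RPKM in WT-SD, 90.4% in WT-TGF, 89.2% in KO-SD and 94.1% in KO-TGF.

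Cacna2d1, the α2δ-1 subunit to which gabapentin binds (chr5:15934264-16374511, plus strand), was at 100.3, 97.8 and 99.3 CPM in the WT-SD libraries and 120.0, 119.7 and 116 in the WT-TGF libraries, and at 169, 149 and 153 in the KO-SD libraries and 152, 157 and 156 in the KO-TGF libraries. It rose in WT (0.26 ± 0.04, FDR 1.39e-07) and was not called in KO (-0.02 ± 0.03, FDR 0.615), where SD was already higher. Cacng7, a γ subunit that also assists glutamate receptors in neurons, was at 66.8, 71.6 and 64.6 CPM in the WT-SD libraries and 52.8, 50.4 and 52.98 in the WT-TGF libraries, and at 56.5, 53.3 and 51.7 in the KO-SD libraries and 36.5, 38.4 and 40.04 in the KO-TGF libraries. It fell in both (-0.38 ± 0.04, FDR 3.39e-09 and -0.49 ± 0.05, FDR 1.15e-10). Kcnq1ot1 is an imprinted long non-coding RNA antisense to Kcnq1 that encodes no channel and is known for silencing its chromosomal neighborhood. It was at 33.8, 36.2 and 38.6 CPM in the WT-SD libraries and 26.7, 25.6 and 26.3 in the WT-TGF libraries, and at 24.9, 27.7 and 29.3 in the KO-SD libraries and 24.9, 23.5 and 20.7 in the KO-TGF libraries, and fell, at -0.47 ± 0.06 (FDR 4.92e-08) in WT and -0.25 ± 0.07 (FDR 0.00166) in KO. It overlaps Kcnq1 on the opposite strand, and the counting used strand.

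**Figure D4:**
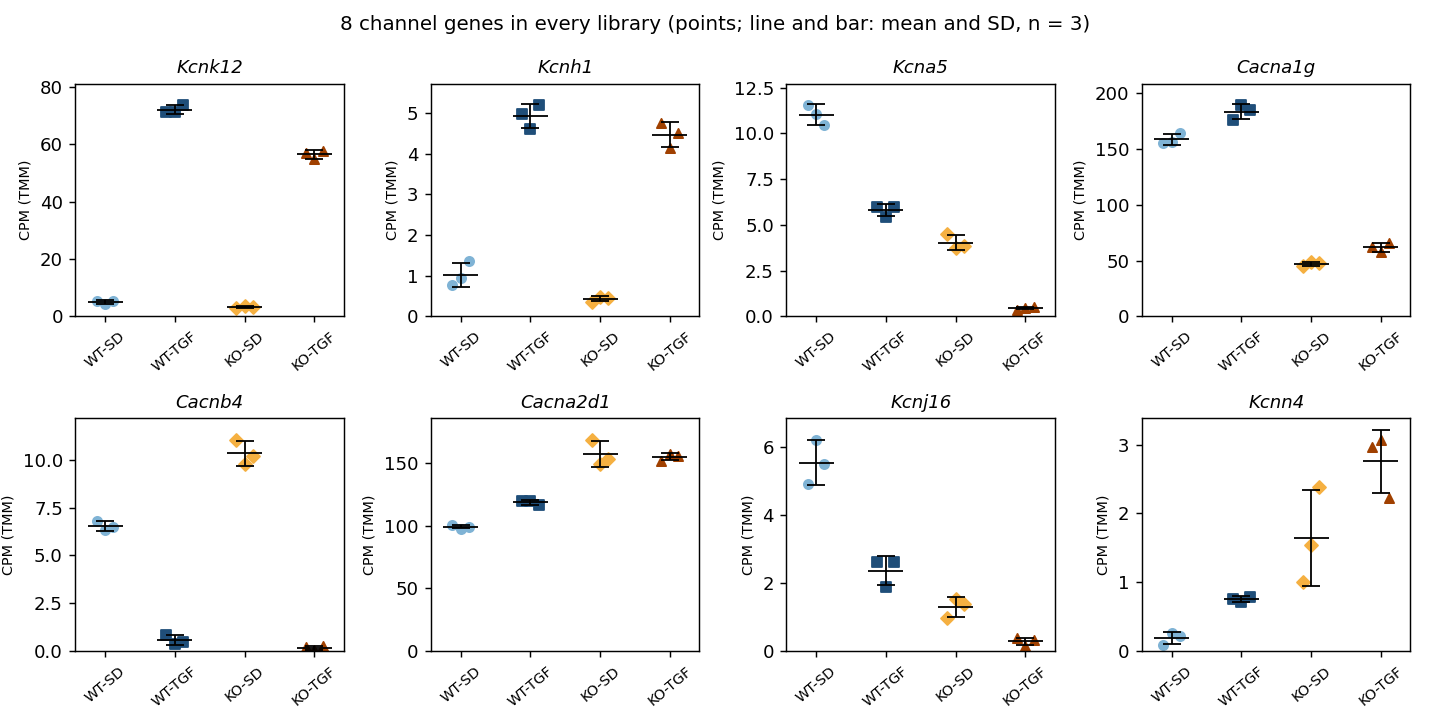
CPM after TMM scaling (y axis, from 0) of 8 genes in every library of the 4 groups (points), with the mean as a line and the SD as a bar. Kcnk12 and Kcnh1 are high in both TGF-β groups, Cacna1g is high in both WT groups, Cacnb4 is low in both TGF-β groups, Kcna5 and Kcnj16 are lowest in KO-TGF, and Cacna2d1 and Kcnn4 are lowest in WT-SD.

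Sequences before annotated starts of the genes that rose or fell in both genotypes were compared for short motifs. Windows of 250 bases before each start in the RefSeq table (GRCm38.p6) were available for 30 of the 37 genes, 49 windows in all. Of these 18 (36.7%) held CAGAC, part of a SMAD site, on either strand, against 42.2% of all 32851 windows. Among the genes that rose in both genotypes 2 of 6 windows held it, and among those that fell in both 10 of 27. The AP-1 motif TGANTCA was in 0 of the 49 windows against 6.75% of all, and the CArG box of serum response factor in 0 against 1.47%. A match is only a description of the letters, and no match says nothing about the factor. The windows of Kcnk12, which had the largest rise, and of Kcnma1, which fell from the highest level among the genes that dropped over 2-fold, hold none of the 3 motifs. The windows of Kcna3 and Kcnn4 are the 2 among the rising genes that hold CAGAC or its complement GTCTG, shown in capitals. Those of Kcnma1 and Kcnn4 lie inside the gene spans chr14:23292288-24005110 and chr7:24369826-24385212. They therefore precede a start within the gene, and not its outermost start. All are written 5′ to 3′ on the strand of the gene.
Kcnk12, chr17:87797995-87798244, minus strand: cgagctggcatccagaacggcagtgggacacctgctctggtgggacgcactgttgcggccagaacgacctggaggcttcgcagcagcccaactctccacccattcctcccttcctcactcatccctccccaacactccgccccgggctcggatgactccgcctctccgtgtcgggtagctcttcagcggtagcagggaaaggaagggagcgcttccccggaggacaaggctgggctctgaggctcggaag
Kcnma1, chr14:24004206-24004455, minus strand: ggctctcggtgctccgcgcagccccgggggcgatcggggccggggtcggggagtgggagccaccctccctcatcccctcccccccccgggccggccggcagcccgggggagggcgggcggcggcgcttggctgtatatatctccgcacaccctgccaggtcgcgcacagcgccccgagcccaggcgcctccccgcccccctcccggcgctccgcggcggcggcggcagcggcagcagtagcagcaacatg
Kcna3, chr3:107035912-107036161, plus strand: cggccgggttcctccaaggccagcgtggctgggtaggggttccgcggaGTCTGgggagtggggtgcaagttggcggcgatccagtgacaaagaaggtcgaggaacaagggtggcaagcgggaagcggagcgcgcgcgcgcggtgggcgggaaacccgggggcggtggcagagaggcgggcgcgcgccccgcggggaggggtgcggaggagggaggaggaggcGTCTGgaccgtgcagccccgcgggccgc
Kcnn4, chr7:24370013-24370262, plus strand: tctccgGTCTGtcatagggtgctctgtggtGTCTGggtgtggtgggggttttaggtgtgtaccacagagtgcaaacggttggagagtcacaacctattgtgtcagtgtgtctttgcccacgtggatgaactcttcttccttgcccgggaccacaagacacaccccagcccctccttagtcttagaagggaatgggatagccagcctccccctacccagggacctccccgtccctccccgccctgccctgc
Kcna3 and Kcnn4 hold 2 matches each, and Kcnma1 is the window richest in G and C of the 4, at 79.2%, against a median of 52.4% over all windows.

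The second question was how the channel mRNAs of KO MMC differ from WT MMC at the same treatment. In KO-SD against WT-SD 10 of the 37 genes were higher, 19 lower and 8 not called, against 32.2% higher and 25.3% lower over all genes. Differences over 2-fold numbered 13 of 37 (35.1%), 4 higher and 9 lower, against 8.77% of all genes. In KO-TGF against WT-TGF 9 were higher, 20 lower and 8 not called, against 27.1% higher and 28.5% lower. Differences over 2-fold numbered 17 (45.9%), 3 higher and 14 lower, against 8.50% of all genes, and the 14 include Kcnd2, which was at or under 3 counts per library in both groups. The median log2 difference of the channel genes was -0.40 in SD and -0.44 with TGF-β, against 0.03 and -0.01 in all genes. Without Cacnb2, Kcnd2 and Kcng3, 10 of 34 were higher and 16 lower in SD, 4 and 7 of them over 2-fold, and 9 were higher and 18 lower with TGF-β, 3 and 12 over 2-fold. The SD comparison shares its libraries with the treatment comparisons above, and so does the TGF-β comparison, so these values are not independent of the responses.

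**Figure D5:**
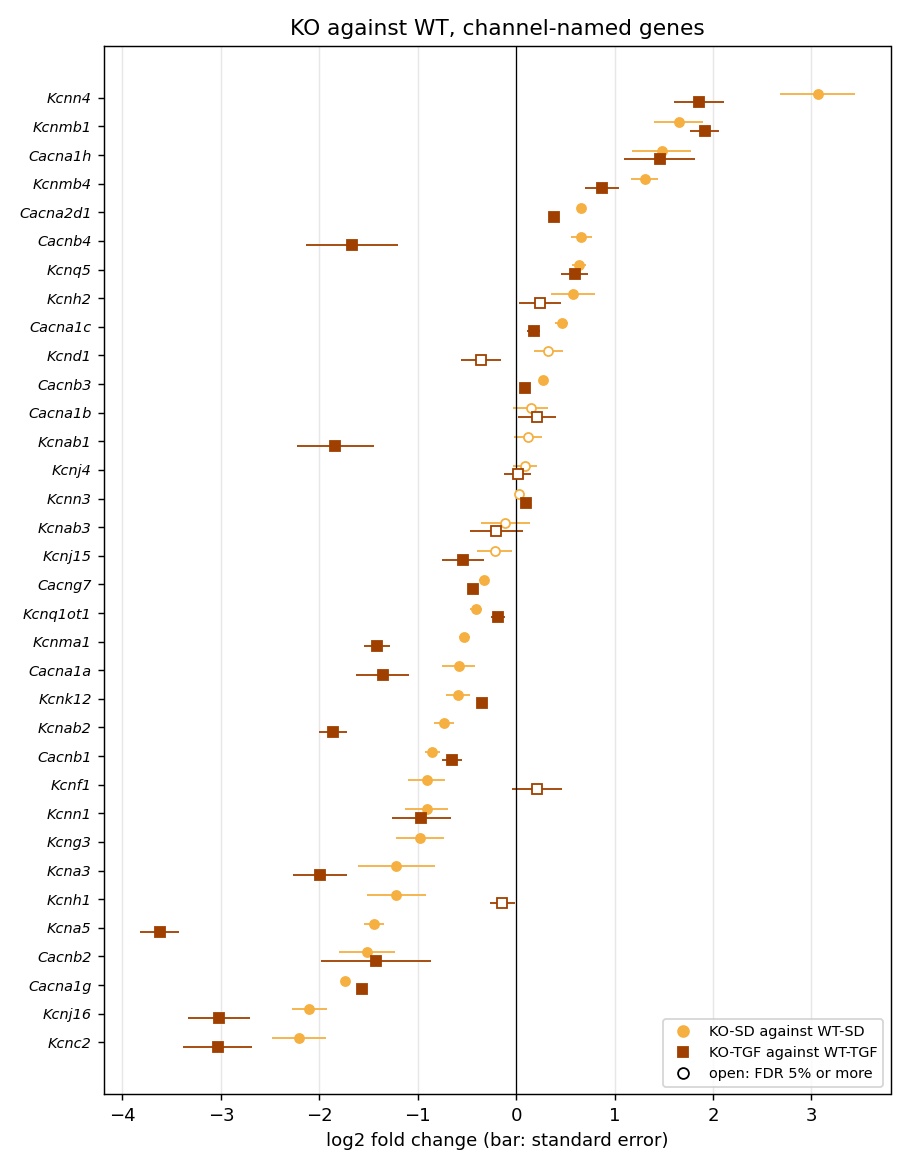
Log2 difference of KO against WT (x axis) of the genes (y axis, ordered by the SD difference) in SD (yellow circles) and with TGF-β (brown squares), with bars for the standard error and open symbols where the FDR was 5% or more. Kcng3 with TGF-β and Kcnd2 are left out because a group rests on 0 to 2 counts or both groups are at or under 3 counts per library. The filled SD symbols of Cacnb2 and Kcng3 are differences from WT-SD, through which they met the count rule, and are not read as calls. Kcnn4 and Cacna1h met the rule through KO libraries only, and Kcna3 and Kcnc2 through WT libraries only. Their symbols are not read as calls either. Kcnn4 and Kcnmb1 lie at the top, and Kcnc2 and Kcnj16 at the bottom.

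Cacna1g carried the largest difference in CPM. At the values given above all 6 KO libraries lay below all 6 WT libraries, and the log2 difference was -1.74 ± 0.04 (FDR 3.61e-26) in SD and -1.57 ± 0.04 (FDR 3.23e-25) with TGF-β. The other T-type pore, Cacna1h, was at 1.48 ± 0.30 and 1.46 ± 0.36, but at 1.49 CPM in KO-SD remained far below Cacna1g at 47.4 CPM. Cacna1h met the count rule through KO libraries only, so no FDR is given. The L-type pore Cacna1c was higher in KO, at 0.46 ± 0.07 (FDR 7.80e-07) in SD and 0.18 ± 0.07 (FDR 0.0228) with TGF-β, the latter lost at 0.05 when scaled by library size alone. Cacna1a was lower (-0.58 ± 0.17, FDR 0.00356 and -1.36 ± 0.27, FDR 8.22e-05).

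Cacna2d1 was higher in KO at both treatments, at 0.66 ± 0.04 (FDR 8.31e-17) and 0.38 ± 0.04 (FDR 5.36e-11). Among the β subunits Cacnb1 was lower (-0.85 ± 0.08, FDR 2.15e-11 and -0.65 ± 0.10, FDR 1.38e-06), and Cacnb2 was at -1.52 ± 0.28 in SD and -1.42 ± 0.56 (FDR 0.0311) with TGF-β, with at most 4 counts in a KO-TGF library. Cacnb3 was higher in SD (0.27 ± 0.04, FDR 1.24e-07), and with TGF-β its difference of 0.09 ± 0.04 (FDR 0.0482) was at -0.04 when scaled by library size alone. Cacnb4 was higher in SD (0.66 ± 0.10, FDR 2.17e-06) and lower with TGF-β (-1.67 ± 0.47, FDR 0.00309), the latter with at most 5 counts in a KO-TGF library. Cacng7 was lower at both (-0.33 ± 0.04, FDR 8.28e-08 and -0.44 ± 0.05, FDR 2.99e-09).

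Of the voltage-gated potassium pores 8 of 12 were lower in KO-SD and 6 of 12 in KO-TGF. Without Kcnd2 and Kcng3 the numbers were 6 and 5 of 10. Over all genes 25.3% were lower in SD and 28.5% with TGF-β. Kcnd2 was the farthest apart in SD, with 2 counts over the KO-SD libraries against 203 over the WT-SD libraries. The WT-SD to KO-SD ratio was 103, without an interval because Kcnd2 met the count rule through WT-SD only. Kcna5 was lower, at -1.45 ± 0.10 (FDR 1.36e-13) in SD and at -3.62 ± 0.20 (FDR 2.41e-16) with TGF-β. Kcnc2 was at -2.21 ± 0.27 and -3.03 ± 0.35. Kcna3 was at -1.22 ± 0.39 and -1.99 ± 0.27, and its SD value was -0.79 without KO-SD replicate 1. Kcnc2 and Kcna3 met the count rule through WT libraries only, so their differences carry no FDR. The 6 and 5 of 10 still include both.

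The other genes of this class had different patterns. Kcnq5 was higher in KO, at 0.64 ± 0.07 (FDR 3.38e-09) and 0.59 ± 0.14 (FDR 0.000516). Kcnh2 was higher in SD (0.58 ± 0.23, FDR 0.0311) and not called with TGF-β (0.24 ± 0.22, FDR 0.358), and Kcnd1 was called at neither treatment (0.33 ± 0.15, FDR 0.0619 and -0.36 ± 0.20, FDR 0.14). Kcnh1 was lower in SD (-1.22 ± 0.30, FDR 0.000851) with overlapping libraries under TGF-β (-0.14 ± 0.13, FDR 0.383), as was Kcnf1 (-0.91 ± 0.19, FDR 0.000119 and 0.21 ± 0.25, FDR 0.508). Kcng3 was at -0.98 ± 0.24 in SD and at or under 3 counts per library in both TGF-β groups.

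Kcnk12 was lower in KO at both treatments, at -0.59 ± 0.12 (FDR 8.69e-05) and -0.35 ± 0.04 (FDR 2.62e-08). Kcnma1 was lower too, at -0.53 ± 0.06 (FDR 6.08e-09) and -1.41 ± 0.13 (FDR 6.87e-11), while its partners were higher, Kcnmb1 at 1.65 ± 0.25 (FDR 1.16e-06) and 1.92 ± 0.15 (FDR 7.31e-13) and Kcnmb4 at 1.31 ± 0.14 (FDR 9.29e-10) and 0.87 ± 0.17 (FDR 5.83e-05). Kcnn4 was at 3.06 ± 0.38 in SD, the largest positive value there, and at 1.86 ± 0.26 with TGF-β, from 3 WT-SD libraries of at most 0.257 CPM. Kcnn4 met the count rule through KO libraries only, so no FDR is given. Kcnn1 was lower, at -0.91 ± 0.22 (FDR 0.000603) and -0.96 ± 0.30 (FDR 0.00712). Kcnn3 was not called in SD (0.03 ± 0.04, FDR 0.502), and its TGF-β difference of 0.10 ± 0.04 (FDR 0.0262) was at -0.02 when scaled by library size alone.

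Kcnj16 was lower in KO, at -2.10 ± 0.17 (FDR 6.08e-12) and -3.02 ± 0.31 (FDR 8.17e-10), with no overlap of libraries. Kcnj4 differed at neither treatment beyond its spread (0.09 ± 0.12, FDR 0.545 and 0.01 ± 0.14, FDR 0.942), and Kcnj15 was called lower with TGF-β (-0.54 ± 0.21, FDR 0.0291) but not in SD (-0.22 ± 0.18, FDR 0.306). Kcnab2 was lower, at -0.73 ± 0.11 (FDR 5.10e-07) and -1.86 ± 0.14 (FDR 5.31e-13), and Kcnab1 was not called in SD (0.12 ± 0.14, FDR 0.472) and lower with TGF-β (-1.84 ± 0.39, FDR 0.000182). Kcnq1ot1 was lower, at -0.41 ± 0.06 (FDR 9.22e-07) and -0.18 ± 0.07 (FDR 0.022), the latter -0.11 (FDR 0.204) without KO-TGF replicate 3. Leaving out single libraries ended 2 of the 29 calls in SD (Kcna3 and Kcnh2) and 7 of the 29 with TGF-β (Cacna1c, Cacnb2, Cacnb3, Kcnj15, Kcnn1, Kcnn3 and Kcnq1ot1).

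The third question was whether the response to TGF-β differs between genotypes, tested as the KO response minus the WT response. A higher or lower response means a more positive or more negative log2 fold change, so a deeper fall counts as lower. Of the 37 genes 3 had a higher and 10 a lower response in KO, and 24 did not pass. Over all genes 7.81% were higher and 17.0% lower. Without Cacnb2, Kcnd2 and Kcng3 the calls were the same, 3 and 10 of 34. Differences over 2-fold numbered 7 of 37 (18.9%), 2 higher and 5 lower, against 3.49% of all genes, and 1 of the 2 was lost without WT-SD replicate 3, WT-TGF replicate 3, KO-SD replicate 1 or KO-TGF replicate 2. With DESeq2's size factors in edgeR the split was 4 higher and 8 lower.

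The genes with a lower response in KO included Cacnb4, at -2.33 ± 0.47 (FDR 0.000304), and Kcna5, at -2.17 ± 0.26 (FDR 5.92e-08). The Kvβ subunits Kcnab1 and Kcnab2 were also among them, at -1.96 ± 0.42 (FDR 0.000546) and -1.13 ± 0.18 (FDR 1.35e-05), and the BK pore Kcnma1, at -0.89 ± 0.15 (FDR 1.98e-05). In the KO-TGF libraries Cacnb4 held 4, 1 and 5 counts, Kcnab1 7, 2 and 7, and Kcna5 7, 9 and 10, so these values rest on few counts. Kv1 channels such as Kcna5 can assemble with Kvβ subunits. In WT-TGF Kcna5 was at 5.98, 5.41 and 5.997 CPM and in KO-TGF at 0.378, 0.485 and 0.530 CPM, while in SD it was at 11.03 ± 0.558 and 4.04 ± 0.400 CPM (mean ± SD). Kcnd1 differed by -0.69 ± 0.25 (FDR 0.0435). Cacnb4, Kcna5, Kcnab1, Kcnma1 and Kcnd1 fell in both genotypes, with the deeper fall in KO, and Kcnab2 was called lower only in KO.

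Smaller differences were found in the more abundant calcium channel genes, Cacna2d1 at -0.28 ± 0.05 (FDR 5.37e-05), Cacna1c at -0.28 ± 0.10 (FDR 0.0288) and Cacnb3 at -0.18 ± 0.05 (FDR 0.0107). Cacna2d1 and Cacna1c rose in WT without a call in KO, while Cacnb3 fell in both and further in KO. The response was higher in KO for Kcnf1 at 1.116 ± 0.32 (FDR 0.00885), for Kcnh1 at 1.08 ± 0.33 (FDR 0.0144) and for Cacna1g at 0.17 ± 0.06 (FDR 0.0236). Kcnf1 fell in WT without a call in KO, while Kcnh1 and Cacna1g rose in both and further in KO. Leaving out single libraries ended calls that included Cacna1c, Cacna1g, Kcnd1 and Kcnh1, and without WT-SD replicate 3 only 1 of the 3 higher calls passed. Kcnk12 at 0.24 ± 0.13 (FDR 0.177) and Kcnq5 at -0.04 ± 0.16 (FDR 0.89), which moved strongly in both genotypes, did not pass, which does not show that their responses were equal.

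Genes outside the name rule that work with these channels were counted from lists of the pathway. Of 22 partner proteins of the channels 7 met the count rule, and 2 rose and 4 fell in WT, 2 rose and 3 fell in KO. Over all genes 36.6% rose and 36.4% fell in WT and 34.7% and 39.8% in KO, which also stands beside the lists that follow, and nothing particular to these lists is read from their counts. Lrrc55, an auxiliary subunit of BK channels, had log2 fold changes of 2.11 in WT (FDR 2.61e-07) and 3.31 in KO (FDR 4.6e-11), and Dpp6, a partner of Kv4 channels, 2.004 (FDR 1.3e-10) and 2.14 (FDR 1.53e-09). Both were higher with TGF-β, from below 1 CPM. Rrad and Gem, small GTP-binding proteins that restrain calcium channels through the β subunits, fell by 1.77 (FDR 4.83e-14) and 0.88 (FDR 4.74e-06) on the log2 scale in WT and by 2.47 (FDR 2.66e-14) and 2.64 (FDR 6.53e-12) in KO. Gem fell further in KO, with a difference of the responses of -1.76 (FDR 2.15e-05). Between genotypes 3 were lower in SD, among them Rem1 at -1.55 (FDR 2.43e-05), and 1 was higher and 3 lower with TGF-β, among them Rrad at -1.27 (FDR 3.22e-06) and Gem at -2.11 (FDR 1.34e-08).

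Of 13 genes of store-operated and TRPC calcium entry 8 met the rule, with 4 higher and 3 lower in the WT response and 3 higher and 4 lower in the KO response. Between genotypes 2 were higher and 4 lower at both treatments, against 32.2% and 25.3% of all genes in SD and 27.1% and 28.5% with TGF-β, and the responses differed upward in 2 and downward in 2. Of 19 calcium release channels, pumps and exchangers 12 met the rule, with 3 higher and 7 lower in both responses, 7 higher and 2 lower in KO-SD against WT-SD, and 6 higher and 4 lower in KO-TGF against WT-TGF. Ryr3, a ryanodine receptor that releases stored calcium, had log2 fold changes of -1.11 (FDR 0.000226) and -1.17 (FDR 5.53e-07), and it was higher in KO by 1.36 in SD (FDR 4.42e-08) and 1.31 with TGF-β (FDR 5.29e-05). Ryr2 was higher in KO-SD by 1.22 (FDR 0.000473).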

How the data were processed

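RNA was measured in 12 libraries of primary mouse mesangial cells, 3 in each of 4 groups. Reads from mRNA libraries were mapped by the authors with TopHat (mm10) and assigned to RefSeq genes by HTSeq-count with strand; the deposited values are raw counts. Reads given to no gene (10.3% to 15.4% of a library outside exons, 11.2% to 11.7% with several alignments) stayed out of the library sizes and tests.

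Here genes with 20 or more counts in at least 3 libraries (12475) were scaled with TMM factors of 0.89 to 1.11 and tested with edgeR 4.0.16 (R 4.3.3) by the quasi-likelihood F test, with 1 mean per group and Benjamini-Hochberg FDR over all of them. A call is an FDR under 5%, and errors beside log2 fold changes are standard errors. CPM were computed with TMM library sizes and RPKM from them with the exon lengths of GENCODE vM21, whose gene models can differ from the RefSeq models counted; positions are from RefSeq (GRCm38.p6, mm10). No fold was given where both groups lay at or under the floor of 3 counts in every library; where a group held 1 to 3 counts in all, the ratio of summed counts is given. Intervals of count ratios cover counting error only. 1 count was worth about 0.05 CPM, so genes under 1 CPM rest on about 20 counts a library or fewer. Fits were tested on simulated counts. DESeq2 1.42.0, other scalings, filters and left-out libraries were tried as alternatives. Libraries with the same number did not deviate together (correlations of -0.00956 to 0.0732 over 18 pairs, 0 over 0.1).

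The genes, classes, marker lists and tests were chosen with earlier results of these data known. Values in every library are given for the gene with the highest RPKM of each class and, per comparison, for the 4 highest and 4 lowest log2 fold changes among called genes with 1 CPM or more in the higher group; the other genes are given by group means. Some genes were counted but are not reported here by name. Pairs of libraries within a group differed by more than counting noise (chi-square per degree of freedom 1.35 to 5.41 over 12 pairs), so no library was counted as a duplicate.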

Additional observations from a re-analysis of the deposited data

Results flagged for a closer look

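In 13 of the 37 genes the TGF-β response differed between KO and WT by the test of the difference itself (edgeR interaction, FDR under 5%). Over all genes 7.81% had a higher and 17.0% a lower response in KO. Of the 13 genes 12 are given here. Among the potassium channel genes the KO response minus the WT response was -2.17 ± 0.26 (FDR 5.92e-08) on the log2 scale for Kcna5, -1.96 ± 0.42 (FDR 0.000546) for Kcnab1, -1.13 ± 0.18 (FDR 1.35e-05) for Kcnab2, -0.69 ± 0.25 (FDR 0.0435) for Kcnd1 and -0.89 ± 0.15 (FDR 1.98e-05) for Kcnma1. It was positive for Kcnf1 at 1.116 ± 0.32 (FDR 0.00885) and for Kcnh1 at 1.08 ± 0.33 (FDR 0.0144). Among the calcium channel genes it was -2.33 ± 0.47 (FDR 0.000304) for Cacnb4, -0.18 ± 0.05 (FDR 0.0107) for Cacnb3, -0.28 ± 0.10 (FDR 0.0288) for Cacna1c and -0.28 ± 0.05 (FDR 5.37e-05) for Cacna2d1, and positive for Cacna1g at 0.17 ± 0.06 (FDR 0.0236). Leaving out single libraries ended the calls of Cacna1c, Cacna1g, Kcnd1 and Kcnh1. In the KO-TGF libraries Cacnb4 held 4, 1 and 5 counts, Kcnab1 7, 2 and 7, and Kcna5 7, 9 and 10. Kcnf1 fell in WT and was not called in KO, and the KO-SD level was already below the WT-SD level. No group has the 4 or more libraries that the search for single outlying libraries needs.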

How the results depend on the processing

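The counts of members were recomputed with library-size scaling, DESeq2 size factors, DESeq2's Wald test, edgeR's likelihood ratio test, 3 other filters, a fit of only the groups compared, a replicate block and without each library. With the filter of RPKM >1 in at least 1 library 18 of the 37 genes were tested, which gave 11 lower in the WT response, 4 higher and 11 lower in the KO response, 9 lower in KO against WT in SD, 10 lower with TGF-β and 1 with a higher response in KO, and 3 higher and 4 lower over 2-fold in WT; fewer genes were tested there. DESeq2's Wald test gave 6 lower responses in KO instead of 10; the cause was not tested. Without single libraries the counts ranged from 9 to 10 higher and 18 to 21 lower in the WT response, 6 to 7 and 18 to 22 in the KO response, 9 to 10 and 18 to 19 in SD, 6 to 9 and 17 to 20 with TGF-β, and 1 to 4 and 7 to 11 for the difference of responses, where the lowest of the higher counts came without WT-SD replicate 3. Scaling by library size alone put the KO against WT difference with TGF-β at -0.0383 for Cacnb3 and -0.0246 for Kcnn3, the opposite sign, and gave 6 higher and 21 lower there. Of 1917 recomputed values of 94 named gene results 1860 kept direction and side of the threshold, 55 lost the call and 2 turned sign.

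An alternative chosen after seeing the data, without the 3 genes that met the count rule in WT-SD only, left each count within 1.5 times its value.

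The replicate numbers did not pair the libraries, and a replicate block gave 9 higher and 20 lower in WT, 7 and 22 in KO, 10 and 19 in SD, 9 and 20 with TGF-β and 3 and 9 for the difference of responses. Depth limits most the genes under 1 CPM in several groups, such as Kcng3, Kcnd2 and Cacnb2.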
